A study of Homo sapiens with 3 samples.

Results

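The genes described here are the protein-coding genes of human chromosome 7 that were expressed in HK1 cells, a line of nasopharyngeal carcinoma, an epithelial cancer of the upper throat. They were chosen by measured values: the gene had to lie on chromosome 7, be annotated as protein-coding and reach a mean of at least 10 FPKM (sequenced fragments, scaled to the length of the transcript and the size of the library) over the 3 libraries. This rule, which also set a gene aside by its symbol, held for 214 of the 61550 genes in the deposited table. Of these, 1 carries an Ensembl identifier and no symbol. Because the mean covers all 3 libraries, 20 members reached it through WT alone, with a FLI1-KO mean below 10 FPKM, and 2 through the FLI1-KO libraries alone, so that the contrast took part in their choice. Another 5373 protein-coding genes of the other 22 chromosomes (1 to 22 and X, without 7) reached the same level and served for comparison. Just inside the threshold were SEMA3C (10.09 FPKM), EGFR (10.17 FPKM) and METTL2B (10.26 FPKM), and just outside were CBLL1 (9.9 FPKM), ST7 (9.93 FPKM) and ENSG00000267645 (9.95 FPKM).

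RNA was sequenced from 3 HK1 cultures after incubation with activated CD8+ T cells: 1 wild-type (WT) library and 2 FLI1 knockout (FLI1-KO) libraries, sgFLI1-1 and sgFLI1-2, each named for its own guide RNA. FLI1 is a transcription factor of the ETS family, and the series asked how its loss in tumour cells changes their transcription next to T cells. The sources used here do not say whether either FLI1-KO line is 1 clone or a pool, nor how T cells were removed before lysis. The libraries held 22172158 (WT), 23904587 (sgFLI1-1) and 22409203 (sgFLI1-2) gene counts. FLI1 itself had 125, 11 and 109 counts in that order, and its difference did not pass the test (log2 fold change −1.09, SE 0.84, edgeR adjusted p = 0.515); an edit in the coding sequence need not lower the RNA of its gene. Of 15 T cell markers, 4, 2 and 3 had any count, with a summed level of 0.407, 1.08 and 1.11 FPKM, and CD3D, CD3E, CD3G, CD8A, CD8B, TRBC1, TRBC2, GZMB and PRF1 were at 0 counts in all 3 libraries. Most of the sum in both FLI1-KO libraries came from CD52, at 0.167, 1.05 and 0.765 FPKM (2, 14 and 10 counts). The 9 epithelial markers summed to 1600, 1790 and 1850 FPKM, nearly all of it KRT8 and KRT18, while TP63 (5, 0 and 0 counts) and KRT5 (8, 0 and 7 counts) were near 0. Other markers of that list were lower in both FLI1-KO libraries: KRT19 was at 9.54, 0.884 and 2.48 FPKM (log2 fold change −2.5, SE 0.46, edgeR adjusted p = 0.00816), KRT17 at 26.8, 19.8 and 17.2 FPKM and EPCAM at 4.81, 3.95 and 2.43 FPKM, and of these only KRT19 passed. CDH1, with few counts, was higher in both (14, 40 and 23 counts), and for KRT14 the FLI1-KO libraries lay on either side of WT (16, 12 and 44 counts). Neither passed. In RNA from a whole culture, fewer cells of a type and less RNA per cell cannot be told apart.

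Human cells normally hold a pair of chromosome 7 copies, and the genes on it have little in common beyond their place on the same DNA molecule. Cancer cell lines often carry gains or losses of whole chromosomes or arms, and the transcript level of many genes follows the number of copies of their chromosome. Chromosome 7 carries the growth factor receptors EGFR and MET, the HOXA cluster and the cytoplasmic actin gene ACTB, beside housekeeping genes of most cellular machines.

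Chromosome 7 transcripts took a smaller share of both FLI1-KO libraries. The 214 members held 3.41% of all counts in WT, 2.7% in sgFLI1-1 and 2.57% in sgFLI1-2, and their summed level was 13600, 11300 and 10300 FPKM. Gene by gene, the change from WT was taken as the difference of log2(FPKM + 1), a scale that understates changes of low genes. Its median over the members was −0.338 in sgFLI1-1 (quartiles −0.595 and −0.155) and −0.414 in sgFLI1-2 (quartiles −0.601 and −0.242), that is, a median ratio of 0.791 and 0.751 to WT. Below WT were 187 members (87.4%) in sgFLI1-1 and 196 members (91.6%) in sgFLI1-2, against 42.4% and 40.7% of the expressed genes of the other chromosomes, whose medians were 0.071 and 0.063.

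The low median was that of most members and not of a few. By CPM (counts scaled to the size of the library), both FLI1-KO libraries were below WT for 186 members (86.9%), against 40.8% of all 15483 tested genes and 33.6% of the expressed genes of the other chromosomes. Both were above WT for 8 members (3.74%), against 38.4% and 47.8%. The edgeR estimate, which joins the FLI1-KO libraries, had a median of −0.418 over the members, 0.061 over the expressed genes of the other chromosomes and 0.001 over all tested genes. Because both FLI1-KO libraries were set against the same WT library, their changes are not independent of each other, and a value particular to the WT library would appear in both.

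Chromosome 7 had the lowest median of the 23 chromosomes in each FLI1-KO library. The medians of the other 22 ran from −0.073 to 0.194 in sgFLI1-1 and from −0.049 to 0.17 in sgFLI1-2, with the lowest on chromosome 19 in both. Since the chromosome was singled out with this difference known, its rank is a description and was given no test.

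**Figure D1:**
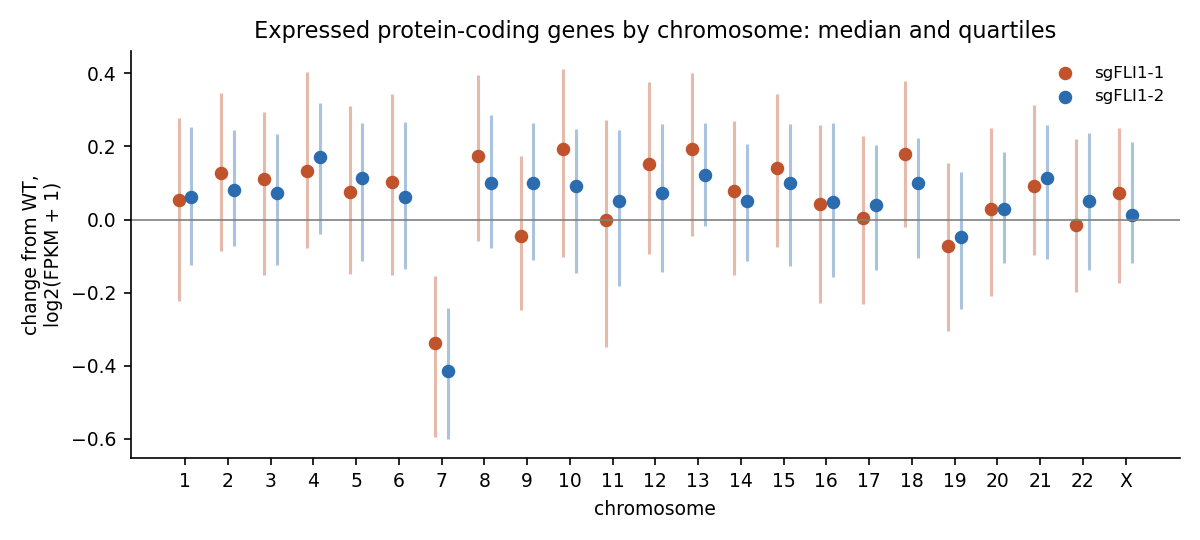
Median change from WT on the log2(FPKM + 1) scale (vertical axis) of the expressed protein-coding genes of each chromosome (horizontal axis), 1 point per FLI1-KO library, with lines from the lower to the upper quartile. The points of chromosome 7, at −0.338 and −0.414, lie under those of the other 22 chromosomes, of which none is below −0.073.

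The shift ran along both arms. The 86 members on the short arm (7p), from FAM20C, a Golgi kinase of secreted proteins with its start at position 192571, to CHCHD2, a mitochondrial protein with its start at 56101573 (GRCh38), had medians of −0.381 in sgFLI1-1 and −0.415 in sgFLI1-2. The 128 members on the long arm (7q), from GUSB, the lysosomal beta-glucuronidase at 65960684, to ESYT2, a protein of membrane contact sites at 158730995, had medians of −0.3 and −0.405. In normalised counts, both FLI1-KO libraries were below WT for 80 of the 86 members on 7p and 106 of the 128 on 7q.

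In windows of 10 Mb, all 16 windows that held a member had a median below 0 in each FLI1-KO library. Among the 13 windows with at least 5 members, the medians ran from −0.523 to −0.168 in sgFLI1-1 and from −0.546 to −0.298 in sgFLI1-2. The 19 members at 40 to 50 Mb on 7p, from the unnamed ENSG00000256646 to the uridine phosphorylase UPP1, were low in both (−0.511 and −0.546). The 18 members at 70 to 80 Mb, from POM121 to PTPN12, were also low (−0.482 and −0.524). Nearest to 0 were the 7 members at 110 to 120 Mb (−0.172 and −0.298) and the 9 at 120 to 130 Mb (−0.168 and −0.303), which lie next to each other on 7q. The 4 members at 80 to 90 Mb, SEMA3C among them, had medians of −0.12 and −0.066, from too few genes to count among the 13.

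Windows of other chromosomes seldom reached this level. Of 256 windows with at least 5 expressed genes, 3 were at or below the member median in sgFLI1-1 and 0 in sgFLI1-2. The 3 were neighbours on chromosome 11, at 100 to 110 Mb (−0.348), 110 to 120 Mb (−0.442) and 120 to 130 Mb (−0.781), and their medians in sgFLI1-2 were 0.058, 0.029 and −0.152. None of these 3 windows reached the member median in sgFLI1-2. FLI1 itself lies on chromosome 11, with 125 counts in WT, 11 in sgFLI1-1 and 109 in sgFLI1-2. Whether its low count in sgFLI1-1 belongs with these windows was not tested.

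**Figure D2:**
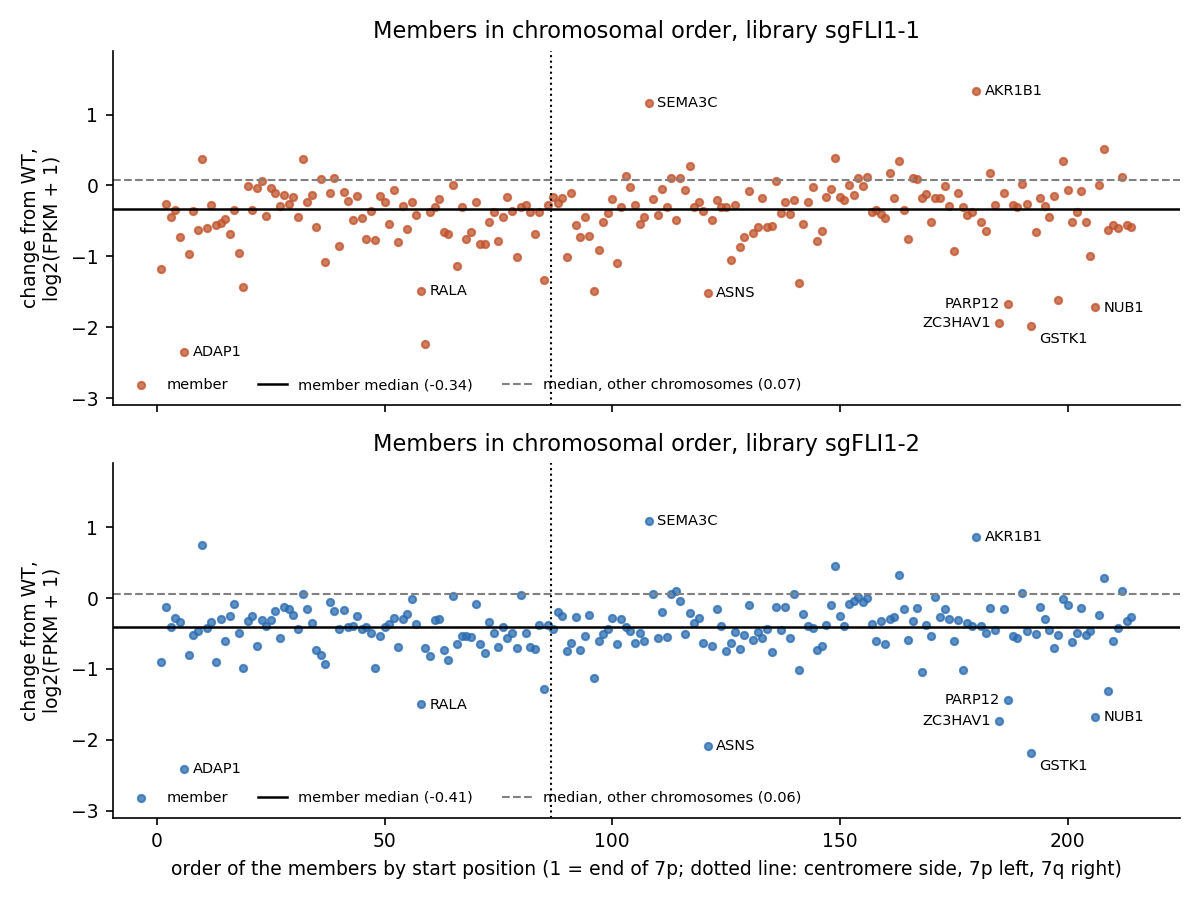
Change of each of the 214 members from WT on the log2(FPKM + 1) scale (vertical axis) against its order by start position (horizontal axis), with sgFLI1-1 above and sgFLI1-2 below. The solid line is the member median (−0.338 and −0.414), the dashed line the median of the other chromosomes (0.071 and 0.063), the dotted line divides 7p from 7q, and the 9 labelled genes depart from the median by at least 1 in both libraries.

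The shift was present at each level and was larger among the lower members, mainly in sgFLI1-1. As the log2(FPKM + 1) scale understates changes of low genes, its sizes at unlike levels are not strictly comparable. The 93 members at 10 to 20 FPKM had medians of −0.409 and −0.431, the 80 members at 20 to 50 FPKM −0.31 and −0.415, and the 41 members at 50 FPKM or more −0.302 and −0.384. Genes of chromosome 7 below the threshold were shifted as well: 247 protein-coding genes at 1 to 10 FPKM had medians of −0.358 and −0.355, against −0.038 and 0.003 for 4617 such genes elsewhere. For 69 non-coding genes of chromosome 7 with at least 1 FPKM the medians were −0.353 and −0.21, against 0.015 and 0.006 for 941 elsewhere. The 64 members that overlap another gene of at least 1 FPKM, a split chosen after seeing the data since their counts could be mixed where strand was not used, had medians of −0.346 and −0.405, and the 150 without such a neighbour −0.336 and −0.416.

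Around the shifted median, the members were spread about as widely as other genes were around theirs. The SD of their changes was 0.484 in sgFLI1-1 and 0.414 in sgFLI1-2, against 0.511 and 0.456 for the expressed genes of the other chromosomes. Within 0.5 of the median were 176 members (82.2%) in sgFLI1-1 and 190 (88.8%) in sgFLI1-2, against 79.9% and 87% elsewhere. Between the FLI1-KO libraries, 121 members were lower and 93 higher in sgFLI1-2, with a median difference of −0.039.

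Few single members passed the test. Genes were tested with edgeR's quasi-likelihood test of both FLI1-KO libraries against WT, with Benjamini-Hochberg adjustment over 15483 genes, and called at adjusted p below 0.05 and at least a 2-fold change. Called lower were 12 members (5.61%), against 2.95% of all tested genes and 2.2% of the expressed genes of the other chromosomes. Called higher were 2 members (0.935%), against 1.83% and 1.6%. By adjusted p alone, 35 members (16.4%) were lower, against 4.27% and 4.06%, and 2 members (0.935%) were higher, against 2.62% and 3.07%. These shares were read as descriptions, because the chromosome had been chosen with its shift known, and because 6 of the members called lower (ADAP1, ZC3HAV1, PARP12, LIMK1, TNRC18 and SUMF2) reached the threshold on level through WT alone and 1 called higher (SEMA3C) through the FLI1-KO libraries alone. The edgeR test of each gene did not use that threshold, but which genes are counted here did. With 1 WT library the spread comes from the FLI1-KO libraries and from other genes. The FLI1-KO libraries carry different guides and were treated as replicates of 1 condition. The spread between them thus holds any difference between the guides, and it does not measure the spread between WT cultures. Nothing in the labels says that the cultures were independent. Without the filter on low counts, 26506 genes were tested and ADAP1 alone stayed called (edgeR adjusted p = 0.0443), while the other 13 called members no longer passed. By adjusted p alone, 1 member was then lower and 0 higher in edgeR, with 92 and 2 at an unadjusted p below 0.05, so that every pass of another member given below holds with the filter only.

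Of the 5 members of highest level, 4 were below WT in both FLI1-KO libraries without passing the test, and the other was AKR1B1. ACTB, cytoplasmic actin, was at 3160 FPKM in WT, 3150 in sgFLI1-1 and 2510 in sgFLI1-2, so that only the second FLI1-KO library was clearly below WT. PPIA, the abundant prolyl isomerase cyclophilin A, was at 502, 352 and 395 FPKM, and HNRNPA2B1, an RNA-binding protein that packages pre-mRNA, at 373, 266 and 283 FPKM, both with WT above each FLI1-KO library. CHCHD2 was at 370, 305 and 283 FPKM. Their edgeR log2 fold changes were −0.18 (SE 0.13) for ACTB, −0.40 (SE 0.14) for PPIA, −0.39 (SE 0.14) for HNRNPA2B1 and −0.35 (SE 0.16) for CHCHD2, with adjusted p from 0.133 to 0.512. ACTB and PPIA, like GUSB (12, 10.6 and 8.66 FPKM), are widely used as reference genes for quantitative PCR.

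Of the 214 members, 9 departed from the shared shift, which was defined as a difference of at least 1 (log2) from the member median of that library, in the same direction in both libraries. The 7 that lay lower (3.27%, against 2.1% of the expressed genes elsewhere around their own median) were ADAP1, GSTK1, ZC3HAV1, ASNS, NUB1, PARP12 and RALA, and the 2 that lay higher (0.935%, against 0.838%) were SEMA3C and AKR1B1. These 9 were picked on the contrast itself, so their departure is a description. Just outside the threshold were SUMF2 (−0.99 and −0.87 from the median), LIMK1 (−1.15 and −0.72), PMPCB (0.73 and 0.87) and MAFK (0.71 and 1.16).

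ADAP1, a phosphoinositide-binding GTPase-activating protein for ARF6, was the member farthest below the median. It was at 23.8 FPKM in WT, 3.86 in sgFLI1-1 and 3.65 in sgFLI1-2, with 1332, 237 and 211 counts, so that both FLI1-KO libraries were far below WT and close to each other. ADAP1 fell by 2.63 on the log2 scale (SE 0.19, edgeR adjusted p = 1.6e-05) and overlaps COX19, whose reads may be mixed with its own. RALA, the other departing member on 7p, is a RAS-like GTPase that drives exocytosis through the exocyst. It was at 50.3, 17.3 and 17.1 FPKM, again with the FLI1-KO libraries together, and fell by 1.52 on the log2 scale (SE 0.17, edgeR adjusted p = 0.000307).

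On 7q, 5 members lay far below the shift, and 4 of them start between positions 139043515 (ZC3HAV1) and 151341772 (NUB1), towards the end of the arm. GSTK1, the kappa-class glutathione transferase of mitochondria and peroxisomes, was at 77.1 FPKM in WT, 18.8 in sgFLI1-1 and 16.1 in sgFLI1-2 (log2 fold change −2.19, SE 0.19, edgeR adjusted p = 5.7e-05). ZC3HAV1, the zinc-finger antiviral protein that binds CpG-rich viral RNA, was at 36.1, 8.69 and 10.2 FPKM (−1.74, SE 0.17, edgeR adjusted p = 0.000118). PARP12, an interferon-induced mono-ADP-ribosyltransferase, was at 29.4, 8.56 and 10.3 FPKM (−1.65, SE 0.18, edgeR adjusted p = 0.000282). In all 3 genes the FLI1-KO libraries lay within a narrow range of each other and far under WT. NUB1, an interferon-inducible protein that lowers the ubiquitin-like modifier NEDD8, was at 71.5, 20.9 and 21.5 FPKM (−1.74, SE 0.16, edgeR adjusted p = 0.000114). ASNS, asparagine synthetase, which the amino acid response induces through ATF4, was at 82.8, 28.4 and 18.8 FPKM (−1.93, SE 0.23, edgeR adjusted p = 0.0006), with sgFLI1-2 below sgFLI1-1.

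SEMA3C and AKR1B1, both on 7q, were the only 2 members called higher. SEMA3C, a secreted semaphorin that guides migrating cells and axons, was at 5.2 FPKM in WT, 12.9 in sgFLI1-1 and 12.2 in sgFLI1-2, with 592, 1615 and 1386 counts. Both FLI1-KO libraries were thus over WT by a like amount, with a log2 fold change in edgeR of 1.28 (SE 0.19, edgeR adjusted p = 0.00253). AKR1B1, aldose reductase, which turns glucose into sorbitol, was at 143, 361 and 260 FPKM, with 4922, 13089 and 8771 counts. It rose by a log2 fold change of 1.09 (SE 0.22, edgeR adjusted p = 0.0131), more in sgFLI1-1 than in sgFLI1-2, where the change was 0.81 on the log2 scale of CPM and under 2-fold. AKR1B1 has close relatives on the same chromosome, with which its reads may be shared. The 6 other members above WT in both libraries did not pass, among them MAFK (log2 fold change 0.58), PRKAG2 (0.42), CAV2 (0.35), FAM133B (0.09) and MRPS24 (0.02).

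**Figure D3:**
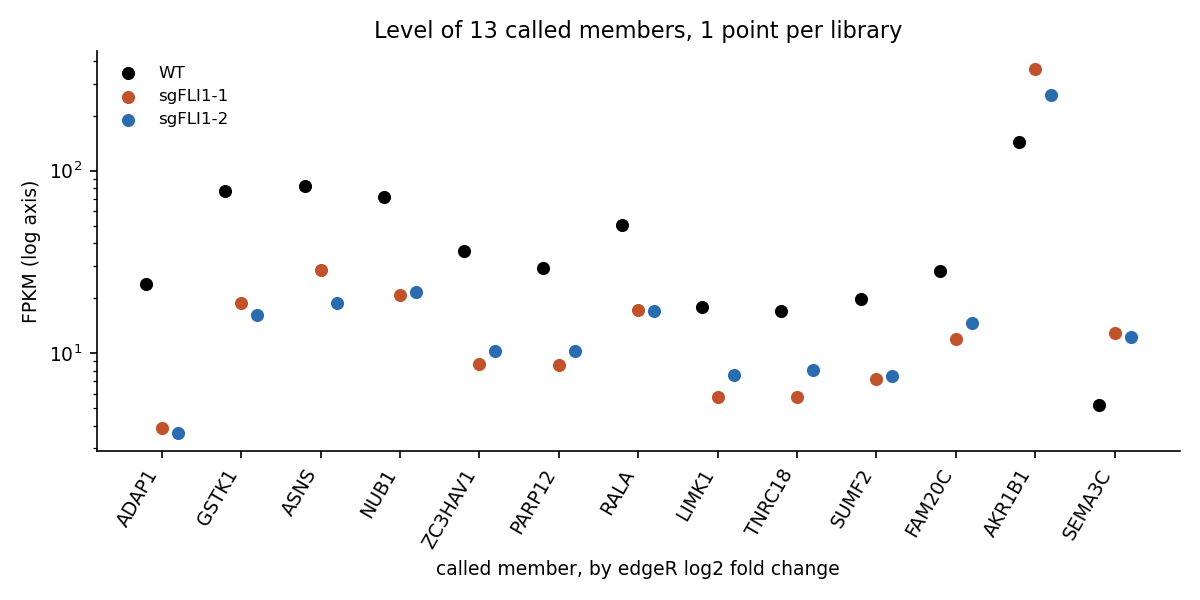
FPKM (vertical log axis) of 13 of the called members (horizontal axis, from the lowest to the highest log2 fold change), 1 point for each of the 3 libraries. In the 11 genes called lower that are shown the WT point lies above both FLI1-KO points, and in AKR1B1 and SEMA3C it lies below both.

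For 9 of the 9 departing members an upstream window could be read from RefSeq (GRCh38.p14). Those of RALA, ASNS, ZC3HAV1 and PARP12 are shown because the first listed window holds letters of a known regulatory motif. AKR1B1, which lay higher, held such letters in its second listed window only and is not shown. FLI1 and other ETS factors bind CCGGAAGT and its variants, the interferon-activated complexes bind elements with GAAANNGAA (ISRE type) or TTCCNGGAA (GAS), and TGATGAAAC is the nutrient-sensing element known from ASNS. Each sequence is the 250 bases before the annotated start of transcription, 5′ to 3′ in the direction of the gene, with the match in capitals. The ETS letters of RALA begin 13 bases before the start (chr7:39623322-39623571, plus strand), the ASNS element 68 bases before it (chr7:97872409-97872658, minus strand), the GAS letters of ZC3HAV1 104 bases before it (chr7:139109721-139109970, minus strand), and the ISRE-type letters of PARP12, which lie on the other strand as TTCGGTTTC, 9 bases before it (chr7:140062952-140063201, minus strand).
RALA: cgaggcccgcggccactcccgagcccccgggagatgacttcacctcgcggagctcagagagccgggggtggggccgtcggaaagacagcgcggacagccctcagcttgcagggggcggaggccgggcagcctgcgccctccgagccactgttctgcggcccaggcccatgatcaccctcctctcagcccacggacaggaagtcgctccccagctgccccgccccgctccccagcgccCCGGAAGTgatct
ASNS: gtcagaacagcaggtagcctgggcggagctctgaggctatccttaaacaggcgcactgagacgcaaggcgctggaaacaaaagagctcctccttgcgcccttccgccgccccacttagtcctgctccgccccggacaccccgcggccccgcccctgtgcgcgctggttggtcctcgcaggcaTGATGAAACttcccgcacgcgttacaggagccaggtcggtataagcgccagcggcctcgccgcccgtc
ZC3HAV1: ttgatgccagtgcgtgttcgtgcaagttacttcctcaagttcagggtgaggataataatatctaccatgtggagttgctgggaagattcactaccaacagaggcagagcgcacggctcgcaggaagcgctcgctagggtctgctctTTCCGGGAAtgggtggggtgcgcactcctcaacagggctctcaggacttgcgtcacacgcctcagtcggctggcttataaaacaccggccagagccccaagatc
PARP12: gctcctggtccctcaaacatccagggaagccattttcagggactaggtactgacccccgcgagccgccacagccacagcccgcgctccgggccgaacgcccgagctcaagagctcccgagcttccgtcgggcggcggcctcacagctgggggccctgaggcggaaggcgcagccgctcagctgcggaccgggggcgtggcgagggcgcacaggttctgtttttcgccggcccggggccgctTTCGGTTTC

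Matches were searched on both strands, with no overlap between the 4 motifs removed, in the first listed window of each of 27305 RefSeq genes, and 180 of the 214 members were found there by symbol. CCGGAAGT was in 25 member windows (13.9%) and in 3.64% of all windows, many of which belong to genes that are not expressed here. Among 4456 expressed protein-coding genes of the other chromosomes with a window, 429 (9.63%) held it. The 25 members with CCGGAAGT had median changes of −0.51 in sgFLI1-1 and −0.517 in sgFLI1-2, and the 155 without it −0.313 and −0.404. On the other chromosomes the medians were 0.018 and 0.025 with these letters and 0.071 and 0.067 without them. GAAANNGAA was in 5 member windows (2.78%, against 7.06% of all windows), TTCCNGGAA in 4 (2.22%, against 1.01%) and TGATGAAAC in that of ASNS alone (0.556%, against 0.183%). For these motifs no share among expressed genes was taken, so their shares cannot be read as more or fewer than such genes hold. The departing members were searched in all 15 of their listed windows, the shares in the first only. In the windows of GSTK1, NUB1, ADAP1 and SEMA3C none of the 4 was found, and AKR1B1 held ISRE-type letters in its second listed window. A match shows that the letters are there and not that a factor binds.

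The remaining called members described here lay below the median of the chromosome in both libraries, by less than 1 in at least 1 of them. LIMK1, the kinase that phosphorylates cofilin, was at 17.8 FPKM in WT, 5.71 in sgFLI1-1 and 7.58 in sgFLI1-2 (log2 fold change −1.43, SE 0.20, edgeR adjusted p = 0.0016). Its lowest library was sgFLI1-1. SUMF2, a relative of the sulfatase-activating enzyme in the endoplasmic reticulum, was at 19.8, 7.24 and 7.53 FPKM (−1.18, SE 0.19, edgeR adjusted p = 0.00415), FAM20C at 28.3, 11.9 and 14.7 FPKM (−1.08, SE 0.18, edgeR adjusted p = 0.0039) and TNRC18, named after its values were seen, at 17, 5.71 and 8.06 FPKM (−1.26, SE 0.20, edgeR adjusted p = 0.0036). SUMF2 was listed among the genes with copies that can share reads. In sgFLI1-2 alone FAM20C fell by 0.99 from WT on the log2 scale of CPM, just under 2-fold.

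The members were grouped into 12 lists, drawn up with results of these data known, which held 129 of the 214 members. Most lists were of related function, 1 was the HOXA cluster, and 1 held genes with copies that can share reads. Over all 214 members, 12 (5.61%) were called lower, 2 (0.935%) higher, and 186 (86.9%) were below WT in both FLI1-KO libraries. Among 13 members for growth factor receptors and kinase signalling, 2 were called lower (RALA and LIMK1), 0 higher, and 10 were below WT in both FLI1-KO libraries, with medians of −0.389 and −0.313. EGFR, the epidermal growth factor receptor, was at 14.9, 6.89 and 8.75 FPKM and fell by 0.98 on the log2 scale (SE 0.18, edgeR adjusted p = 0.00905), and MET, the hepatocyte growth factor receptor, was at 46.7, 27.1 and 30.6 FPKM and fell by 0.70 (SE 0.16, edgeR adjusted p = 0.0276). Both receptors passed by adjusted p but stayed under 2-fold. PRKAG2, a subunit of the energy sensor AMPK, was the 1 member of this list above WT in both, at 8.5, 12.6 and 10.5 FPKM. PRKAG2 reached the threshold on level through the FLI1-KO libraries alone and EGFR through WT alone, so that the contrast took part in their choice.

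The interferon and immune list had 5 members, of which ZC3HAV1 and PARP12 were called lower and the other 3 did not pass. Of all members 5.61% were called lower, against 2.95% of all tested genes. ZC3HAV1 and PARP12 reached the threshold on level through WT alone, so that the contrast took part in their choice. NUB1, described above as interferon-inducible, was not on this list. PSMA2, a subunit of the proteasome core, had a log2 fold change of −0.67 and NAMPT, which makes the NAD precursor NMN, of −0.40. IL6, the inflammatory cytokine, was at 18.2 FPKM in WT, 19.5 in sgFLI1-1 and 10.1 in sgFLI1-2, so that its FLI1-KO libraries lay on either side of WT. The list's medians were −0.383 in sgFLI1-1 and −0.824 in sgFLI1-2. With 5 members, the second was the value of PSMA2 itself, so these medians were not ranked against other lists.

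Lists of housekeeping function held few called genes and many genes below WT, much as the members as a whole did. Of all members, 5.61% were called lower and 86.9% were below WT in both FLI1-KO libraries, against 2.95% and 40.8% of all tested genes. Of 22 members for mitochondrial proteins, 0 were called by edgeR (13 were lower at an unadjusted p below 0.05) and 0 by DESeq2, 1 was lower by adjusted p alone (GARS1, glycyl-tRNA synthetase, at 113, 65.8 and 56.9 FPKM), and 21 were below WT in both FLI1-KO libraries, with medians of −0.323 and −0.476. Of 20 members for RNA processing and translation, 0 were called by edgeR (12 lower at an unadjusted p below 0.05) and 0 by DESeq2, 5 were lower by adjusted p alone (CPSF4, TNPO3, EIF4H, GARS1 and DDX56), and 18 were below WT in both, with medians of −0.459 and −0.451. EIF4H, which stimulates the RNA helicase of translation initiation, was at 193, 102 and 126 FPKM. Of 16 members for DNA replication and cell division, only MCM7, a subunit of the replicative helicase, was lower by adjusted p, at 177, 111 and 118 FPKM (edgeR log2 fold change −0.66, SE 0.15, edgeR adjusted p = 0.0289), and 13 were below WT in both (medians −0.442 and −0.411). At an unadjusted p below 0.05 in edgeR 10 of the 16 were lower, and DESeq2 called 0 at 2-fold.

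Of 19 members for protein folding, degradation and trafficking, SUMF2 was called and the vesicle fusion protein YKT6 was lower by adjusted p alone, while 18 were below WT in both (medians −0.277 and −0.396). Over all members the shares were 5.61% called lower, 0.935% called higher and 86.9% below WT in both. Among all tested genes they were 2.95%, 1.83% and 40.8%. The 14 metabolic enzymes included ASNS, called lower, and AKR1B1, called higher, and also PSPH, which makes serine, and OGDH of the citric acid cycle, both lower by adjusted p alone. Their medians were −0.326 and −0.504. Among 5 secreted and matrix proteins, 1 was called lower and 1, SEMA3C, was called higher, and the list's medians were −0.309 and −0.797.

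In 2 lists 0 members passed by edgeR or DESeq2, with 4 and 3 members lower at an unadjusted p below 0.05 in edgeR. The 12 members for the actin cytoskeleton, adhesion and caveolae had medians of −0.25 and −0.293, and 10 were below WT in both FLI1-KO libraries, with CAV2, a caveolin, above it in both at 36.5, 46.5 and 45.9 FPKM. The 5 members for chromatin and transcription factors had medians of −0.387 and −0.272. They included CBX3, a heterochromatin protein, at 134, 120 and 113 FPKM (log2 fold change −0.21, SE 0.16, edgeR adjusted p = 0.513), and MAFK, a small MAF protein that pairs with NRF2, at 11.5, 15.1 and 20 FPKM. No gene of the HOXA cluster reached 10 FPKM. In the list of 12 members with copies that can share reads, 1 was called lower and 1 higher (medians −0.282 and −0.533). For these lists too, the shares over all members were 5.61% called lower, 0.935% called higher and 86.9% below WT in both. Among all tested genes they were 2.95%, 1.83% and 40.8%.

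Subunits of a complex offer a comparison within 1 function, since many complexes have 1 subunit on chromosome 7 and the rest elsewhere. After the values had been seen, 26 complexes were listed, with 29 subunits among the members and their partners of at least 10 FPKM on other chromosomes. The chromosome 7 subunit was below the median of its partners for 27 of 29 subunits in sgFLI1-1 and 28 of 29 in sgFLI1-2, with median differences of −0.307 and −0.522. Of all 214 members, 87.4% in sgFLI1-1 and 91.6% in sgFLI1-2 were below WT, so that counts of this kind largely repeat the shift described above. Subunits of 1 complex share their partners, and no test was made.

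The gap varied from complex to complex. It was near 0 for ORC5 of the origin recognition complex (−0.04 in sgFLI1-1 and −0.02 in sgFLI1-2) and for RPA3 of the single-strand binding protein RPA in sgFLI1-1 (−0.05, against −0.25 in sgFLI1-2). The next 3 complexes lay beyond the median gap in sgFLI1-1. CCT6A of the TRiC chaperonin, which folds actin and tubulin, was at 226, 174 and 173 FPKM, a change of −0.38 in each library, while its 7 partners had medians of 0.25 and 0.12. RFC2 of the clamp loader replication factor C changed by −0.51 in each library, against 0.22 and 0.23 for 4 partners. EZH2, the methyltransferase of the Polycomb complex PRC2, changed by −0.45 in each, against 0.35 and 0.27 for 2 partners. In these 3 complexes the subunit on chromosome 7 was below WT and its partners above. MCM7 changed by −0.67 and −0.59, and its 5 partners, the other subunits of the helicase, by −0.16 and −0.25. TOMM7 of the mitochondrial import pore, with only 333, 164 and 179 counts, changed by −1.08 and −0.93, against 0.14 and 0.16 for 6 partners. The exception in both libraries was PMPCB, a subunit of the peptidase that trims imported mitochondrial proteins, which changed by 0.39 and 0.45, against 0.15 and 0.11 for PMPCA. PMPCB was above WT in FPKM (26.9, 35.5 and 37.1) but not by the counts in edgeR (log2 fold change −0.12, SE 0.18, edgeR adjusted p = 0.752), and it overlaps DNAJC2 and PSMC2.

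**Figure D4:**
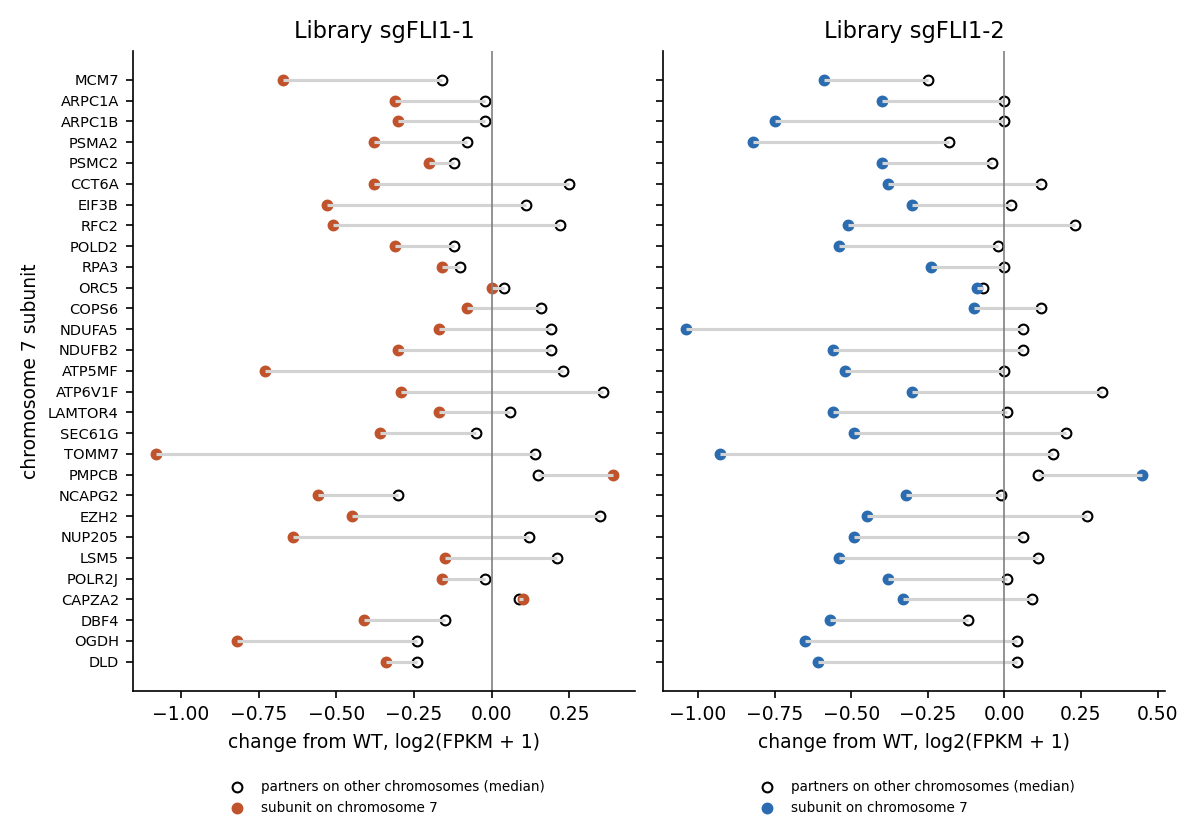
Change from WT on the log2(FPKM + 1) scale (horizontal axes) of 29 chromosome 7 subunits (filled points) and the median of their partners on other chromosomes (open points), with sgFLI1-1 left and sgFLI1-2 right. The filled point is left of the open one in 27 of 29 rows for sgFLI1-1 and 28 of 29 for sgFLI1-2, and PMPCB is the row where it is to the right in both.

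In 5 members, named after their values were seen, the FLI1-KO libraries differed by more than 0.7 from each other on the log2(FPKM + 1) scale. ENSG00000256646 was at 24.6 FPKM in WT, 4.41 in sgFLI1-1 and 14.7 in sgFLI1-2, and LRRC61 at 30, 9.09 and 20.7 FPKM, both with sgFLI1-1 the lowest library. ENSG00000256646 overlaps PSMA2, and LRRC61 overlaps ACTR3C and ZBED10P. NDUFA5, a subunit of respiratory complex I, was at 26.7, 23.6 and 12.5 FPKM, MEST, a gene expressed from the paternal copy, at 18.7, 14.9 and 8.75 FPKM, and with IL6 they were lowest in sgFLI1-2. For NDUFA5 the counts (1322, 1404 and 1094) did not follow the FPKM, which also depends on the transcript lengths estimated for each library. None of the 5 passed the edgeR test.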

How the data were processed

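RNA was sequenced from 1 WT and 2 FLI1-KO HK1 libraries. Per the paper's methods and the submitters' notes, reads were trimmed with fastp 0.23.2, aligned to GRCh38.p12 with HISAT2 2.0.4 and assembled with StringTie 1.3.4d. The authors deposited 1 table with raw counts and FPKM values per gene and library, made with a counting tool that these sources do not name. Its columns KO1 and KO2 were taken as sgFLI1-1 and sgFLI1-2 by their number alone, and a swap would exchange the values given per guide. Columns with the authors' own comparisons were not used.

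The counts were tested with edgeR 4.0.16 (R 4.3.3; TMM, filterByExpr with a minimum count of 10, 15483 genes, 1 residual degree of freedom), with DESeq2 1.42.0 as an alternative. SEs were computed as the log2 fold change over the root of the F statistic. The FPKM values were compared as log2(FPKM + 1), which is a description with no test. Arms were divided at 60 Mb. The scripts were tested on simulated data. Genes were named by rule: FLI1, departing members, the 5 highest members, the first and last of each arm, and for each list its top called members by fold (3 at most) or else its highest member. All others were chosen after their values were seen, and some results are not reported here. The members, lists and tests were chosen with earlier results of these data known. The total counts of 22172158 to 23904587 per library limit the precision. Tables and plots were made with pandas 2.3.3 and matplotlib 3.10.9 under Python 3.11.15.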

Additional observations from a re-analysis of the deposited data

How the results depend on the processing

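No paired analysis was possible because there was 1 WT library, whose label carries no number. Called members numbered 12 lower and 2 higher. Without the filter on low counts edgeR called 1 lower and 0 higher, with 92 and 2 members at an unadjusted p below 0.05. By adjusted p alone 35 were lower, and with a mean of at least 20 FPKM 5 were called lower and 1 higher. Leaving out 1 FLI1-KO library leaves no residual degrees of freedom, so members at least 2-fold from WT were counted: 13 to 23 lower (23 in sgFLI1-1) and 1 to 2 higher (1 in sgFLI1-2, without AKR1B1). DESeq2, median-of-ratios scaling, TMM without chromosome 7 genes and a minimum of 50 counts gave 12 to 15 lower and 2 higher. Of 22 named genes, 22 kept their side of the threshold and direction under these 4, and 10 did without the filter, where 12 were no longer called. Of the 14 named genes past the adjusted p, 13 lost it without the filter, MCM7 (adjusted p = 0.262 in edgeR) among them.

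Relative to the other chromosomes, the median change was −0.409 in sgFLI1-1, −0.477 in sgFLI1-2 and −0.459 for their mean (−0.397 as reported). Without the threshold on level it was −0.327 in sgFLI1-2 and −0.315 for the mean. Without one or the other FLI1-KO library the mean became −0.414 to −0.338. On the log2(CPM + 1) scale 7p had −0.408 and −0.447, and with 20 Mb windows the lowest median in sgFLI1-1 was −0.448. Departing members numbered 6 higher at a 1.5-fold deviation, and 0 higher and 0 lower at 4-fold. In single libraries 7 to 12 departed lower (12 in sgFLI1-1) and 2 to 3 higher. In all of these the median of the members was below 0. With 1 WT library, nothing tells a difference between genotypes from one between cultures.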
